A study of Homo sapiens with 4 samples.

Results

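A set of 10 genes of the heat shock system, named for HSP90 and its cytosolic partners, were followed in OVCAR5 cells, an established human ovarian cancer line derived from ascites and labelled high-grade serous. They are HSP90AA1, HSP90AB1, HSPA1A, HSPA1B, HSPA8, HSPH1, HSPB1, HSPD1, HSPE1 and DNAJB1, that is, 10 of the 56655 gene symbols in the count tables. They were picked by symbol with their fold changes between these groups already known, so those changes are given as a description and carry no test. The label does not cover all of them, since HSPD1 and HSPE1 encode mitochondrial chaperones.

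Poly(A) RNA was sequenced from cells stably carrying a nontargeting hairpin (shCtrl, 2 libraries) or one against the transcription factor gene FOXK2 (shFOXK2, 2 libraries), as biological duplicates. Short hairpin RNAs, which lower matching transcripts, were delivered by puromycin-selected lentivirus, and only 1 hairpin against FOXK2 and 1 cell line were sequenced. Library totals ran from 14284005 to 21950873 counts, so 3 counts corresponded to between 0.137 and 0.21 CPM, that is, counts scaled to a common library total. FOXK2 itself had 80.5 and 93.4 CPM in shCtrl and 76.3 and 59.6 CPM in shFOXK2, which is -0.36 on the log2 scale (SE 0.25). With an edgeR adjusted p of 0.257 this did not pass the threshold of an adjusted p under 0.05. The paper reports lower FOXK2 mRNA by qRT-PCR and lower FOXK2 protein by Western blot in OVCAR5 cells carrying shFOXK2. Of 6 serous markers, WT1, SOX17, EMX2 and ESR1 did not exceed 3 counts in a library, while PAX8 (15.7 and 20.9 CPM in shCtrl, 11.0 and 8.90 CPM in shFOXK2) and MUC16 (17.8 and 9.03 CPM, then 0 and 0.439 CPM) were both called lower. PAX8 lost that call without shCtrl replicate 2, without shFOXK2 replicate 2 and with the offset on A content described below (-0.74, -0.77 and -0.52, from -0.88). Of 5 epithelial markers, KRT8, KRT18, KRT19 and EPCAM were not called, and CDH1 (E-cadherin) was lower, at 20.6 and 16.2 CPM in shCtrl and 0.914 and 1.32 CPM in shFOXK2 (adjusted p = 5.12e-06). The summed serous markers were at 30.1 to 33.7 CPM in shCtrl and 9.89 to 11.0 CPM in shFOXK2, and the summed endothelial markers at 7.72 to 10.6 and 0.633 to 2.03 CPM. Summed fibroblast markers were at 18.9 to 20.4 CPM in shCtrl and 13.5 to 16.4 CPM in shFOXK2, with PDGFRB called lower and COL1A1 not called. Summed leukocyte markers were at 0.997 to 1.03 CPM in shCtrl and 0.659 to 2.04 CPM in shFOXK2. The part of these differences in the results below was not tested, and in bulk RNA fewer expressing cells and less RNA per cell cannot be told apart.

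Heat shock genes are induced when unfolded protein accumulates. Heat shock factor 1 (HSF1), released from chaperones, forms trimers that bind heat shock elements, which are inverted repeats of a GAA unit, and drives transcription of chaperone genes. HSP70 proteins bind exposed hydrophobic stretches with the help of J-domain proteins, nucleotide exchange factors of the HSP110 type release the client, and HSP90 dimers complete the maturation of kinases and steroid receptors. HSP90AA1 is the stress-inducible cytosolic HSP90 and HSP90AB1 its constitutive counterpart, and tumour cells rely on HSP90 to keep oncogenic clients folded.

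The letters of heat shock elements are shown first, since they are what the genes of this system are known to share. Promoter sequence was read from hg38 over the 250 bases before the start of each canonical transcript, given 5′ to 3′ on the gene's strand with every match to a pair of inverted units (GAANNTTC or TTCNNGAA) in capitals. HSP90AA1 is shown as the gene with the largest change, HSP90AB1 as its paralog, and HSPA1A and DNAJB1 as classical heat-inducible genes.
HSP90AA1 (chr14:102087045-102087294, minus strand): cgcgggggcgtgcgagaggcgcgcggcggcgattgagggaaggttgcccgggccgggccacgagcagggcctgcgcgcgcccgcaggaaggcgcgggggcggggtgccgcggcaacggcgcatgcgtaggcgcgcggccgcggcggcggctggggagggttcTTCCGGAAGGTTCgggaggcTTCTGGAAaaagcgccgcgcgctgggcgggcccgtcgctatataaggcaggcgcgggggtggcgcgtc
HSP90AB1 (chr6:44246851-44247100, plus strand): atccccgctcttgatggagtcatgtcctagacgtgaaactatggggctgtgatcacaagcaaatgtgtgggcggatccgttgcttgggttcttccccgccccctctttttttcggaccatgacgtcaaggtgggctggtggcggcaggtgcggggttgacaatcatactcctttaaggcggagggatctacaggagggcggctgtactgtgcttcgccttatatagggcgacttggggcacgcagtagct
HSPA1A (chr6:31815293-31815542, plus strand): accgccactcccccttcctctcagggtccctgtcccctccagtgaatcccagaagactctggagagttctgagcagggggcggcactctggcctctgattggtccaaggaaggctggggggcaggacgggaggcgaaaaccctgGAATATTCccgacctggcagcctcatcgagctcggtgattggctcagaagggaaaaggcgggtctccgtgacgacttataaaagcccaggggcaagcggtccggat
DNAJB1 (chr19:14518398-14518647, minus strand): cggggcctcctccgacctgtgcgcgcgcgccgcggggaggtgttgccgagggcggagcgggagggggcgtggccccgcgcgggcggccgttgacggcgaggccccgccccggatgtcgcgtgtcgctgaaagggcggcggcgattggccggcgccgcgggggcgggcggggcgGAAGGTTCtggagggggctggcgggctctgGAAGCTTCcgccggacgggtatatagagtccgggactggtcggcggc
Where windows of other members lay largely inside exons of alternative transcripts, 29 bases around a run of at least 3 alternating units are shown instead.
HSPA8 (chr11:123062171-123062199, minus strand): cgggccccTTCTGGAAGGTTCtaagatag
HSPH1 (chr13:31161943-31161971, minus strand): gccgcagaTTCTGGAAAGTTCtgatcagt
HSPD1 (chr2:197500062-197500090, minus strand): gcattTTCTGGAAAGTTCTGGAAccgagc

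A 2-unit match, in either order of its units, occurred in 8 of the 10 windows, and in 9.50% of the 20018 windows before protein-coding genes. Each order reads the same on both strands apart from its N positions, so both strands were covered. A run of 3 alternating units, which contains overlapping 2-unit matches, occurred before HSP90AA1, HSPA8, HSPH1 and HSPD1, against 0.325% of all windows. HSP90AA1 held its 3-unit run from base -88 to base -76 and a further 2-unit match from -68 to -61. HSP90AB1 and HSPE1 held no match in this window, which says only that these letters are not in it. HSPE1 and HSPD1 start head to head with 538 bases between their starts, and the matches counted for HSPD1 lie between bases -311 and -294 from the start of HSPE1, just beyond its window. HSPA8 and DNAJB1, whose levels overlapped between groups (values below), carried 4 and 2 matches, beside 3 each for HSP90AA1, HSPH1 and HSPD1. Elements outside these windows and degenerate elements were not searched.

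**Figure D1:**
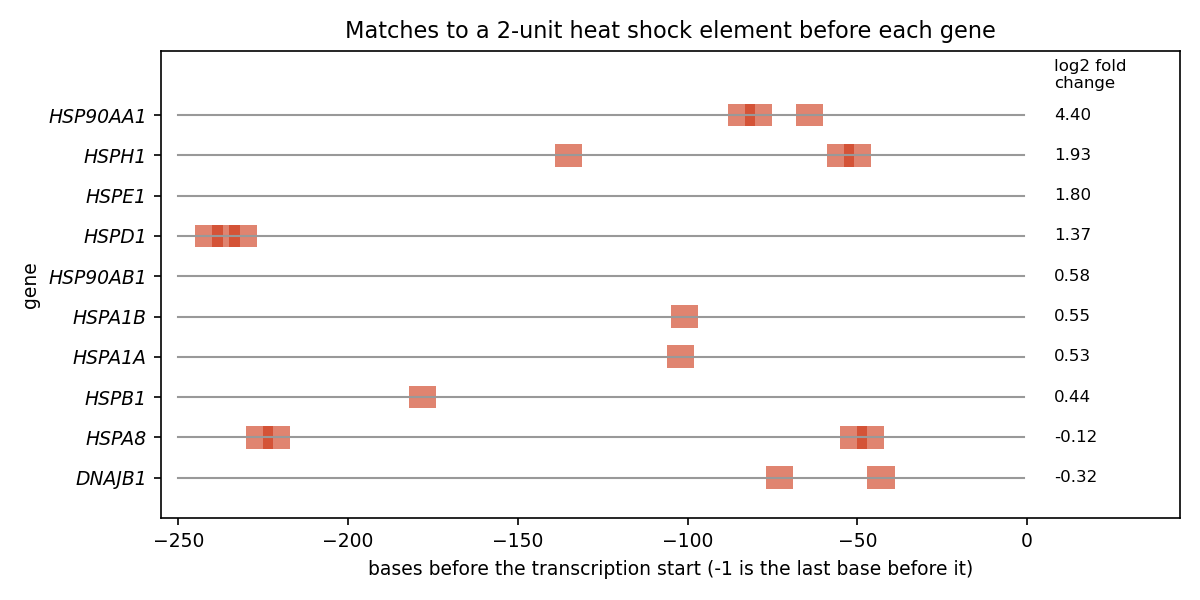
Positions of 2-unit heat shock element matches (red boxes, darker where they overlap) in the 250 bases before each of the 10 genes, in bases from the transcription start on the x axis, with genes ordered by the log2 fold change written at the right. Matches stand before genes at the top (HSP90AA1, 4.40) and at the bottom (DNAJB1, -0.32) of that order, and HSPE1 and HSP90AB1 have none in the window.

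Outside the 10, the 31 tested genes with a 3-unit run had 8 higher and 3 lower calls (35.5% called) and a median log2 fold change of 0.10. The 972 tested genes with any 2-unit match had 214 higher and 216 lower calls (44.2%) and a median of 0.01. The 11760 with none had 2391 higher and 3110 lower calls (46.8%) and a median of -0.08. The shares called higher and lower were 25.8% and 9.68% with a 3-unit run. They were 22.0% and 22.2% with any 2-unit match, and 20.3% and 26.4% with none.

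HSP90AA1 (ENSG00000080824.19, chromosome 14, 102080742 to 102139699, minus strand, hg38) was read at 477 CPM in shCtrl 1, 477 CPM in shCtrl 2, 10766 CPM in shFOXK2 1 and 9371 CPM in shFOXK2 2. Both shFOXK2 libraries were far above both controls, and libraries of the same group lay close together. The fold change was 21.1, or 4.40 on the log2 scale (SE 0.30), which ranked 18 among the 10163 genes whose log2 CPM averaged 3 or more. In the shFOXK2 libraries HSP90AA1 took 1.07% and 0.962% of all counts, against 0.0485% and 0.0455% in shCtrl, and it moved from rank 285 and 323 to rank 4 in both shFOXK2 libraries.

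HSP90AB1, the constitutive paralog (ENSG00000096384.20, chromosome 6, 44246166 to 44253888), was at 1460 and 1716 CPM in shCtrl and 2453 and 2299 CPM in shFOXK2. Both shFOXK2 libraries were above both controls, with a log2 fold change of 0.58 (SE 0.25). The order of the paralogs was therefore opposite in the groups: the count ratio of HSP90AA1 to HSP90AB1 was 0.327 and 0.278 in shCtrl and 4.39 and 4.08 in shFOXK2, a difference of 3.81 on the log2 scale. Per kilobase of transcript, HSP90AA1 was at 148 CPM in each control and HSP90AB1 at 571 and 672 CPM, whereas in shFOXK2 HSP90AA1 was at 3335 and 2903 and HSP90AB1 at 960.0 and 899.8 CPM per kilobase.

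Of the 10 genes, all of which passed the filter on low counts, 4 were called higher (HSP90AA1, HSPH1, HSPE1 and HSPD1), none lower and 6 neither way. Over all 16417 tested genes 48.4% were called, 25.7% higher and 22.7% lower, and since the 10 were chosen on this contrast nothing is read from the comparison. Both shFOXK2 libraries were above both controls for 6 of the 10 and below for none, with 75.4% of all tested genes separated either way, 39.2% above and 36.2% below. The median log2 fold change of the 10 was 0.57, and 0.55 for the 9 genes other than HSP90AA1, beside 0.04 over all tested genes. Together the 10 took 0.489% and 0.522% of counts in shCtrl and 1.82% and 1.51% in shFOXK2. Without HSP90AA1 these shares were 0.441% and 0.476% against 0.752% and 0.548%, so HSP90AA1 made up 9.91% and 8.73% of the group's counts in shCtrl and 58.8% and 63.7% in shFOXK2.

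**Figure D2:**
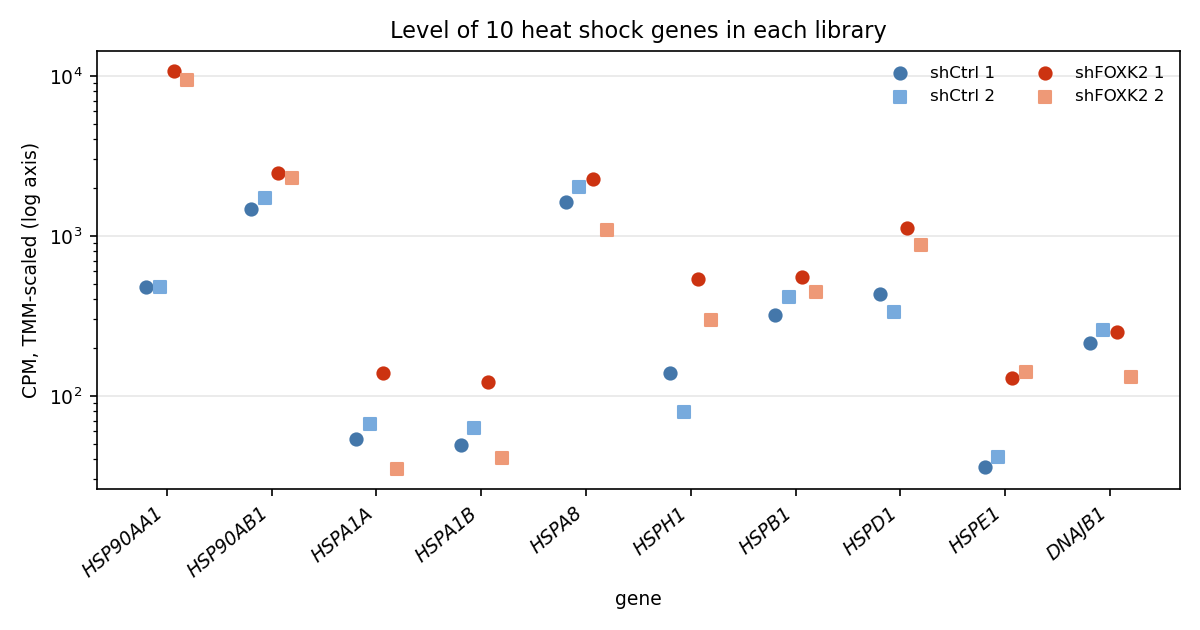
CPM of each of the 10 genes (log axis) in the 4 libraries, 1 point per library, blue for shCtrl and red to orange for shFOXK2. HSP90AA1 rises from 477 CPM in both controls to 10766 and 9371 CPM, while the points of HSPA1A, HSPA1B, HSPA8 and DNAJB1 interleave between groups.

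The genes of the HSP70 machine did not move as a block. HSPH1, the HSP110 exchange factor that also resolves aggregates, had 139 and 79.5 CPM in shCtrl and 535 and 297 CPM in shFOXK2, a log2 fold change of 1.93 (SE 0.33). Its shFOXK2 libraries were above both controls, although libraries within each group differed by 1.75-fold and 1.80-fold. HSPA1A, the major heat-inducible HSP70, had 53.4 and 66.4 CPM in shCtrl, 138 CPM in shFOXK2 1 and 34.9 CPM in shFOXK2 2, so that one shFOXK2 library was above both controls and the other below. Its log2 fold change of 0.53 (SE 0.44) became -0.80 without shFOXK2 replicate 1, and 1.18, then called higher, when replicate 2 of shFOXK2 was left out, a fit in which 21.2% of all genes were called higher. The neighbouring copy HSPA1B showed the same split, with 49.1 and 62.7 CPM in shCtrl against 123 and 41.1 CPM, and its log2 fold change of 0.55 (SE 0.39) became -0.47 and 1.10 in the same order, the latter called higher. The copies cannot be counted apart with confidence, because 75.1% of the 50-base windows of the HSPA1A transcript and 71.6% of those of HSPA1B occur more than once in the genome. Counted as a single gene, the pair had a log2 fold change of 0.54.

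HSPA8, the constitutive HSP70 cognate, had 1627 and 2011 CPM in shCtrl and 2254 and 1083 CPM in shFOXK2. Again shFOXK2 1 was above and shFOXK2 2 below both controls, and the log2 fold change of -0.12 (SE 0.32) was -0.77 without shFOXK2 replicate 1 and 0.28 when replicate 2 was left out. DNAJB1, the J-domain partner that hands clients to HSP70, had 215 and 259 CPM in shCtrl and 249.9 and 131 CPM in shFOXK2, a log2 fold change of -0.32 (SE 0.29). One shFOXK2 library lay between the controls and the other beneath them, so that the value was -0.89 without the first shFOXK2 library, and then called lower as 19.5% of all genes were in that fit, and 0.04 without the other.

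HSPB1 (HSP27), the small heat shock protein that holds unfolded clients without ATP, had 322 and 414 CPM in shCtrl and 553 and 445 CPM in shFOXK2, a log2 fold change of 0.44 (SE 0.24) with the groups just separated. HSPD1 (HSP60) and HSPE1 (HSP10) form the mitochondrial folding chamber and its lid. HSPD1 had 435 and 332 CPM in shCtrl and 1114 and 871 CPM in shFOXK2, a log2 fold change of 1.37 (SE 0.25). HSPE1 had 36.1 and 41.4 CPM in shCtrl and 129 and 140.0 CPM in shFOXK2, a log2 fold change of 1.80 (SE 0.25). Both were separated between groups with close duplicates. For HSPE1 34.5% of exonic bases overlap the read-through gene HSPE1-MOB4, and 43.7% of HSPD1 and 38.5% of HSPE1 windows recur in the genome.

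Setting HSP90AA1 beside each partner inside a library avoided scaling between libraries. Its count ratio to HSPA8 was 0.293 and 0.237 in shCtrl and 4.78 and 8.66 in shFOXK2. Against HSPH1 the ratio was 3.43 and 5.99 in shCtrl and 20.1 and 31.6 in shFOXK2. Against HSPA1A it was 8.94 and 7.18 in shCtrl and 77.7 and 269 in shFOXK2. The lowest shFOXK2 ratio thus exceeded the highest shCtrl ratio against each of these genes, and the spread between the shFOXK2 libraries was widest against HSPA1A. The difference in log2 fold change between HSP90AA1 and HSPH1, the next largest of the 10, was 2.47.

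The spread between the shFOXK2 libraries was no part of the rule for the 10, and it sorted them in another way than the fold change. The level in shFOXK2 1 divided by that in shFOXK2 2 was 3.97 for HSPA1A, 2.98 for HSPA1B, 2.08 for HSPA8, 1.91 for DNAJB1 and 1.80 for HSPH1. It was between 0.923 for HSPE1 and 1.28 for HSPD1 for the other 5, with HSP90AA1 at 1.15. Thus 5 of 10 reached 1.5-fold, whereas 6.73% of the 10163 genes averaging 3 or more in log2 CPM did so, 0.935% reached 2-fold and 0.177% reached 3-fold. In 9 of the 10 genes shFOXK2 1 was the higher library, against 55.4% of those genes. HSPA1A and HSPA1B share most of their sequence and are not separate observations here. Between the shCtrl libraries the same ratio for HSPA1A, HSPA1B, HSPA8 and DNAJB1 ran from 0.783 to 0.831, but for HSPH1 it was 1.75, and 15.4% of those genes reached 1.5-fold in shCtrl 1 over shCtrl 2.

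Other HSF1 targets were higher in shFOXK2 1 as well. All 17 listed targets outside the 10 that averaged 3 or more in log2 CPM had the higher level in shFOXK2 1, and 5 of them by at least 1.5-fold, BAG3 (1.70), FKBP4 (1.67), DNAJA1 (1.54), CHORDC1 (1.51) and SERPINH1. HSPA6, a strictly heat-inducible HSP70, held 8 and 5 reads in shCtrl beside 116 in shFOXK2 1 and 2 in shFOXK2 2. CRYAB, a small heat shock protein, held 2 and 6 reads in the controls beside 42 and 9 in shFOXK2. With 1 library on each side, this difference between duplicates has no replicate of its own, and its cause was not tested.

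**Figure D3:**
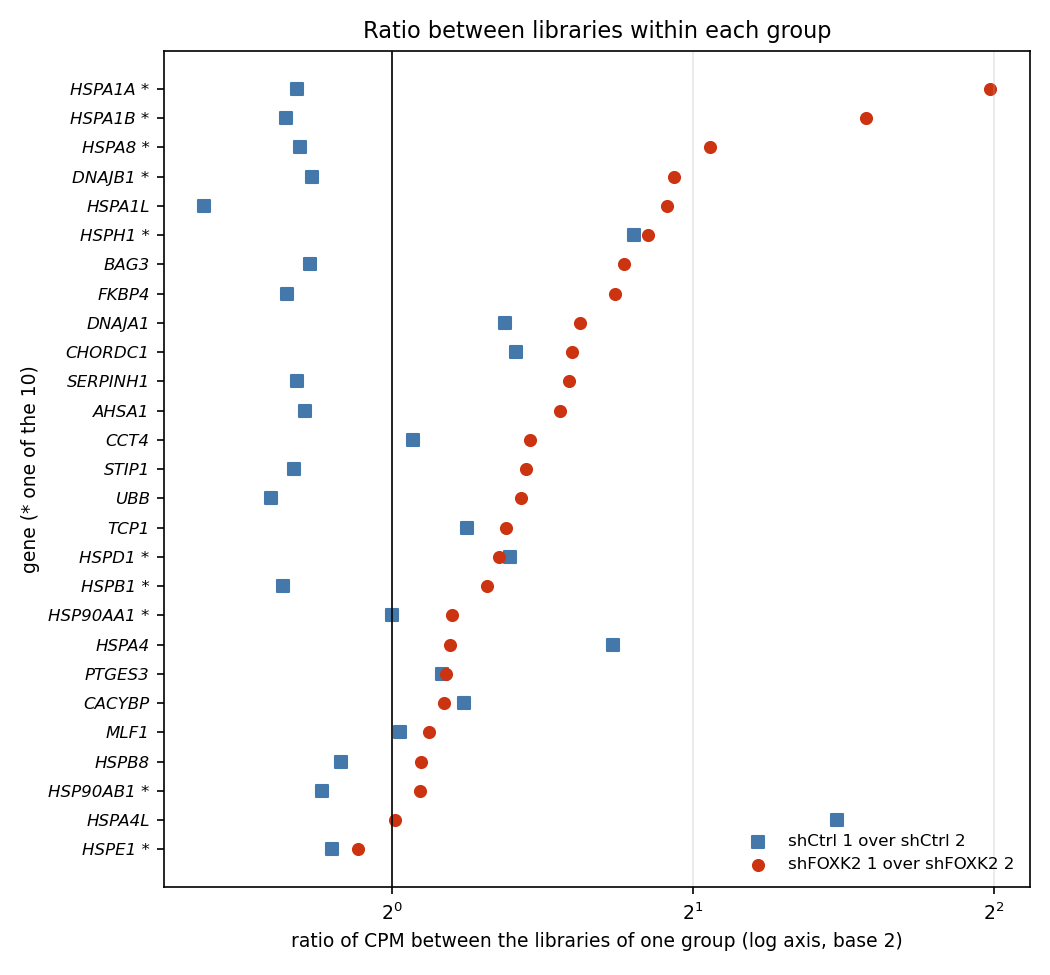
Ratio of CPM between the libraries of each group (replicate 1 over replicate 2, log axis in base 2) for the 10 genes, marked with an asterisk, and the tested HSF1 targets shown, with red circles for shFOXK2 and blue squares for shCtrl. HSPA1A (3.97), HSPA1B (2.98) and HSPA8 (2.08) have the highest shFOXK2 ratios, and HSP90AA1 (1.15) stands near the lower end.

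Among the regulators, HSF1 differed by 0.20 (log2, SE 0.26, adjusted p = 0.552) with overlapping groups, and HSF2 by 0.66 (SE 0.31, adjusted p = 0.0973), so that neither passed. With the offset on A content described below, HSF1 was at 0.56 and called higher (adjusted p = 0.0445), as 24.9% of genes were in that fit. Relative to the median change per gene with that offset, HSF1 was at 0.30. HSF4, a family member best known from the lens, rose from 86 and 74 counts to 248 and 340 counts (2.10, SE 0.31, adjusted p = 0.000144). HSF5 stayed at 1 count or fewer and was not tested, and the other 3 listed regulators did not pass.

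Of the 20 listed HSF1 targets outside the 10, 18 were tested, and 5 were higher, 3 lower and 10 not called, with a median log2 fold change of 0.13. These 44.4% called are near the 48.4% over all tested genes. CHORDC1, an HSP90 co-chaperone, rose by 2.56 on the log2 scale (SE 0.29, adjusted p = 2.5e-05). HSPA4L, an HSP110 relative, rose by 1.78 (SE 0.39, adjusted p = 0.00221), DNAJA1, a J-domain protein, by 1.16 (SE 0.27, adjusted p = 0.00297), CACYBP by 1.07 (SE 0.25, adjusted p = 0.00295) and FKBP4, an HSP90-binding immunophilin, by 0.83 (SE 0.27, adjusted p = 0.0233). The call of FKBP4 ended without shFOXK2 replicate 1 (0.39, adjusted p = 0.341) and without shCtrl replicate 1 (0.63, adjusted p = 0.0852). Against these, HSPB8, a small heat shock protein that works with BAG3 in selective autophagy, fell by 2.42 on the log2 scale (SE 0.29, adjusted p = 3.3e-05). UBB, which encodes polyubiquitin, was also lower, at -1.13 on that scale (SE 0.25, adjusted p = 0.00246). The 10 targets that did not pass were BAG3 (-0.20), HSPA4 (0.16), AHSA1 (0.07), STIP1 (0.56), PTGES3 (0.26), SERPINH1 (0.10), HSPA1L (-0.04), TCP1 (0.36), CCT4 (0.10) and MLF1 (-0.18). HSPA6 and CRYAB did not reach the filter. The largest rise among the 18, that of CHORDC1, was below the 4.40 of HSP90AA1.

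Of 26 HSP90 co-chaperones, the longest list, 9 were higher and 3 lower with a median of 0.21, and their 46.2% called are near the 48.4% of all tested genes. CHORDC1 and SUGT1, which bridges HSP90 to other complexes (1.76, SE 0.27, adjusted p = 0.000183), rose most, and the immunophilin FKBP8 was among the 3 that fell (-0.66, SE 0.24, adjusted p = 0.0377), a call that ended without shFOXK2 replicate 1 (-0.57, adjusted p = 0.156) or shCtrl replicate 2 (-0.50, adjusted p = 0.146). In the HSP70 and HSP110 family 2 of 8 were higher (HSPA4L and HSPA14, 1.24, adjusted p = 0.00389) and HSPA2 was lower (-1.33, adjusted p = 0.00168). Among 9 exchange factors and partners BAG4 was higher (1.18, adjusted p = 0.00359) and BAG6 lower (-0.84, adjusted p = 0.00801). J-domain proteins went both ways, 6 higher and 6 lower of 19, led by the ribosome-associated DNAJC2 (3.36, adjusted p = 2e-06) and DNAJC21 (1.80, adjusted p = 0.000212) upward and by DNAJC5 (-1.29, adjusted p = 0.000596) and DNAJB2 (-1.20, adjusted p = 0.00276) downward.

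Of 15 subunits of the cytosolic folding chamber TRiC and of prefoldin, 4 were higher and none lower, led by CCT8 (1.07, adjusted p = 0.00203) and VBP1 (0.96, adjusted p = 0.0068). Of 3 tested small heat shock proteins outside the 10, HSPB8 alone was called. Of 13 mitochondrial chaperones and proteases 2 were higher, DNAJA3 (0.81, adjusted p = 0.0173) and HSPA9, and CLPB was lower (-0.68, adjusted p = 0.0456), and no gene of that list reached the 1.37 of HSPD1. Without shFOXK2 replicate 1 these 3 calls ended, at 0.60 for DNAJA3, 0.54 for HSPA9 and -0.69 for CLPB. DNAJA3 also failed without shCtrl replicate 1 (0.60), HSPA9 without shCtrl replicate 2 (0.58), and CLPB without shCtrl replicate 2 (-0.57) or shFOXK2 replicate 2 (-0.72). Paralogs in other compartments went in both directions. Mitochondrial HSPA9 was 0.73 higher (SE 0.24, adjusted p = 0.0204) and mitochondrial TRAP1 was not called (0.19, adjusted p = 0.584). In the endoplasmic reticulum HSPA5 (BiP), the main lumenal HSP70, fell by 1.77 (SE 0.25, adjusted p = 0.000107) and HYOU1, its exchange factor, fell by 1.85 (SE 0.23, adjusted p = 4.6e-05). HSP90B1 (GRP94), the lumenal HSP90, held 17813 and 8102 reads in the controls, overlapping the 7693 and 22763 of shFOXK2, and was called higher when replicate 1 of shFOXK2 was left out (0.91, adjusted p = 0.0145). Of 12 genes for HSP90 clients, CHEK1 was higher (1.66, adjusted p = 0.000209) and ERBB2, EGFR, SRC and HIF1A were lower, with SRC (-1.82, adjusted p = 6.9e-05) and HIF1A (-1.38, adjusted p = 0.00215) lowest. EGFR lost its call without shFOXK2 replicate 2 (-0.77, adjusted p = 0.0676). Over all 104 tested genes of the lists other than the clients, without counting a gene more than once, 25 were higher and 17 lower (40.4% called, against 48.4% of all genes), with a median log2 fold change of 0.13.

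**Figure D4:**
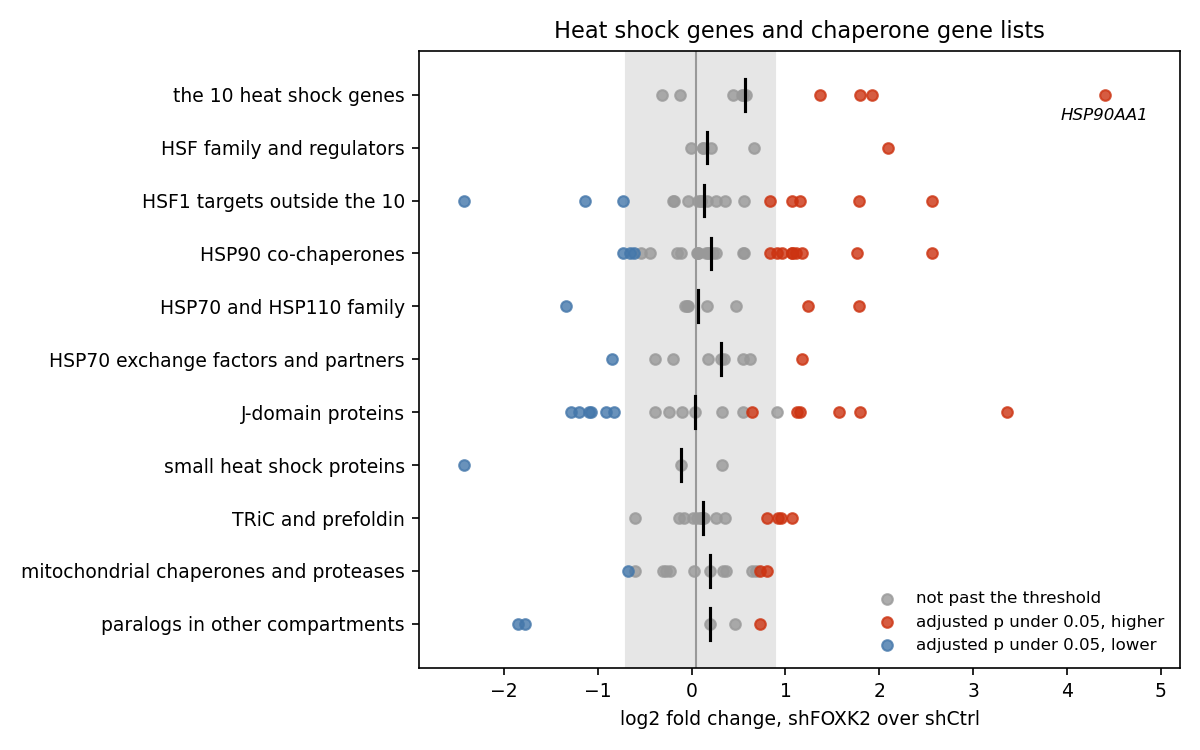
Log2 fold change of shFOXK2 over shCtrl for the tested genes of each list, 1 point per gene, red where called higher, blue where called lower and grey where not called. Black bars mark list medians, the grey line the median (0.04) and the band the lower to upper quartile of all tested genes, and HSP90AA1 at 4.40 lies to the right of every other point.

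Fold changes across the transcriptome varied with the A content of the transcript, and the 10 genes differed in it. The median over tested genes within 1 percentage point was -0.34 around HSPB1 and 0.92 around HSPE1. The transcript of HSP90AA1 is 32.5% A, those of HSPE1, HSPH1 and HSPD1 are 32.5%, 31.6% and 31.5% A, and those of the 6 genes that were not called range from 17.9% (HSPB1) to 29.2% (HSPA8). The 1018 tested genes within 1 percentage point of HSP90AA1 had a median log2 fold change of 0.90, and 98.7% of them lay below it. For HSPH1, HSPE1 and HSPD1 the medians of such neighbours were 0.63, 0.92 and 0.62, and 86.8%, 77.6% and 76.7% of neighbours lay below the gene. An offset on A content was then fitted in each library, and the median change per gene in log2 fold change was 0.26. With this offset HSP90AA1 kept 3.35, HSPH1 1.24, HSPE1 0.72 and HSPD1 0.65. HSP90AB1 was at 0.62, HSPA1A at 0.83, HSPA1B at 0.85, HSPB1 at 0.76, DNAJB1 at 0.025 and HSPA8 at -0.28. These values include the median change of 0.26. Relative to it, HSP90AA1 was at 3.09, HSP90AB1 at 0.36, HSPB1 at 0.50 and DNAJB1 at -0.23. Among the 10, 6 were then called, HSP90AB1 and HSPB1 in addition. Of the 14511 genes with known A content 49.8% were called, 24.9% higher and 24.9% lower.

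The lists outside the 10 changed more with this offset. Of the 18 tested HSF1 targets 3 were then called higher and 3 lower, and CHORDC1 was at 1.22, FKBP4 at 1.16 and HSPA4L at 0.91. DNAJA1 (0.48, adjusted p = 0.131) and CACYBP (-0.41, adjusted p = 0.114) no longer passed, while HSPB8 (-2.09) and UBB (-0.82) did. Among the co-chaperones 8 were called higher and none lower, so that FKBP8 no longer passed. Among J-domain proteins 3 were higher and 7 lower, with DNAJC2 down to 0.78. TRiC and prefoldin subunits went 2 each way, with VBP1 at -0.10 and not called. HSPA9 was at 0.30 (adjusted p = 0.268), whereas HSPA5 and HYOU1 kept their calls. HSP90B1 turned from 0.46 to -0.89 with the offset and was then called lower (adjusted p = 0.0439). In all, 23 of the 104 genes were higher and 22 lower. The cause of the relation with A content was not tested.

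**Figure D5:**
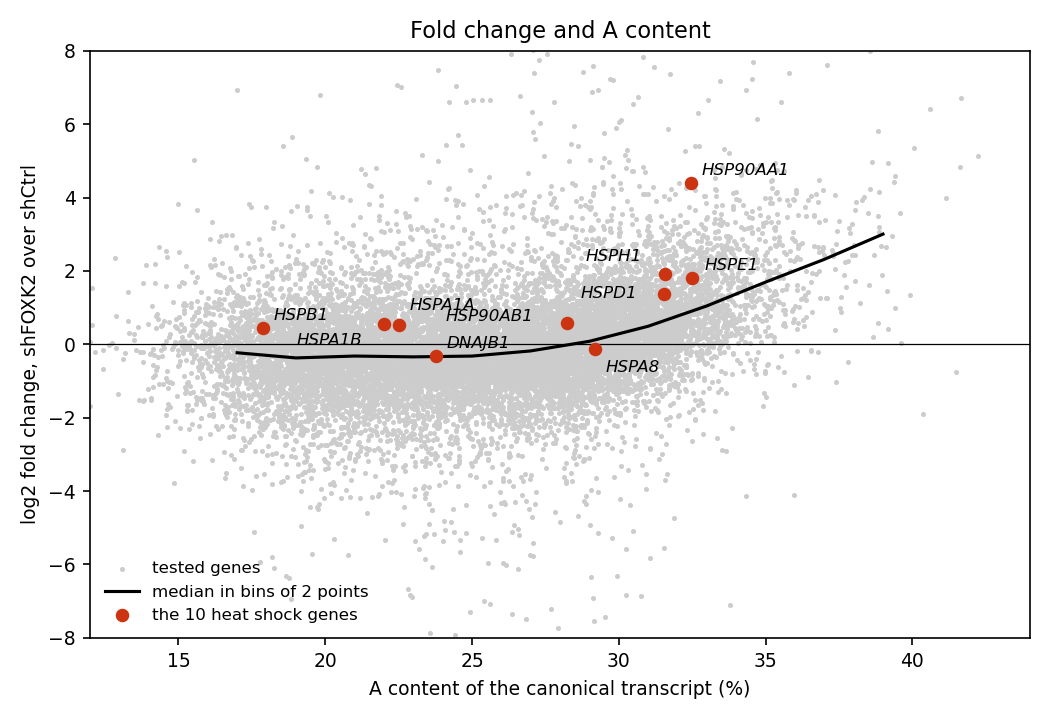
Log2 fold change against the A content of the canonical transcript in percent, with grey points for tested genes between -8 and 8, a black line for the median in bins of 2 percentage points, and the 10 heat shock genes in red. HSP90AA1 (32.5% A, 4.40) is well above the line, whereas HSPE1, HSPH1 and HSPD1 sit closer to it.

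The genes whose 4 libraries followed HSP90AA1 most closely, by Euclidean distance of centred log2 CPM over 4 libraries, were NEXN (distance 0.37), ANKRD36, GOLGA4, ANKRD26 and SGO2, with log2 fold changes from 3.93 to 4.49. None of them is a chaperone gene of the lists, and their transcripts are 35.4% to 39.4% A.

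Genes beside HSP90AA1 on chromosome 14 went in both directions, by less than HSP90AA1. On the side of lower coordinates, DYNC1H1, a dynein heavy chain, was at -0.62 on the log2 scale (adjusted p = 0.0402, and not called without shCtrl replicate 1 or either shFOXK2 library, at -0.58, -0.61 and -0.68) and PPP2R5C was not called (0.28, adjusted p = 0.366). On the other side WDR20, which overlaps the longest HSP90AA1 transcripts on the opposite strand, was not called (0.27, adjusted p = 0.4), MOK rose by 1.68 (adjusted p = 0.000222) and ZNF839 was not called (0.11, adjusted p = 0.791). Of 16 tested genes within 1 Mb, 1 was higher and 6 were lower, with a median of -0.49, beside 25.7% higher and 22.7% lower over all tested genes.

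Processed pseudogenes took few of the reads. The 4 pseudogene symbols of HSP90AA1 summed to between 0.117% and 0.235% of its own counts. HSP90AA2P went from 11 and 16 counts in the controls to 190 and 180.0 in shFOXK2 and HSP90AA6P from 1 and 1 to 19 and 11, both in the direction of the parent gene, while HSP90AB3P had 34 and 39 against 37 and 43 counts. HSP90AB4P was at 0 and 1 counts in the controls but 35 and 67 in shFOXK2. Reads of a parent gene and of its pseudogenes cannot be told apart where their sequences coincide, and 21.7% of HSP90AA1 windows recur elsewhere. HSPA8P15, with 4 and 0 counts against 20 and 16, and HSPD1P11, with 5 and 1 against 10 and 18, were also higher, and the 7 other pseudogene symbols of the 10 genes with at least 10 counts in a library were not called or not tested.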

How the data were processed

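Per the paper's methods and the submitters' processing notes, single-end reads of poly(A)-selected libraries were aligned by the authors to hg38 (GRCh38) with STAR 2.5.2, counted with HTSeq and analysed with edgeR after scaling to library size. The gene annotation and strand setting are not given in the sources used here. The deposited tables hold raw counts per gene symbol, 1 table per library. Groups and replicate numbers come from the sample titles. The 10 genes, the gene lists and the tests were chosen with earlier results of these data known.

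In R 4.3.3, edgeR 4.0.16 was used: filterByExpr, TMM scaling and the quasi-likelihood F test on all 16417 genes that passed, with Benjamini-Hochberg adjustment and a threshold of 0.05. Standard errors were taken as the size of a log2 fold change over the root of its F statistic. P-values rest on the spread between these duplicates, with the spread of each gene drawn toward that of all genes. CPM values are TMM-scaled. Annotation was GENCODE v44 on hg38, found for 37235 of 56655 symbols, and A content of the canonical transcript was known for 14511 of the tested genes (88.4%). Uniqueness was scored over 50-base windows of each transcript that do not span a splice junction. The code was tested on simulated data. Genes named are the 10, HSF1 and HSF2, the compartment paralogs, every listed HSF1 target, up to 2 largest rises and falls among the calls of each other list, the 2 nearest tested genes on each side of HSP90AA1, pseudogene symbols with at least 10 counts in a library, the 5 genes nearest in pattern and FOXK2. Some items that this rule names are not reported here. HSF5, WDR20, the marker genes, the remaining client genes and the shares by promoter letters were named or added after their values were seen. Alternatives were DESeq2 1.42.0 (size factors and Wald test), library size alone, other filters, the edgeR exact test, a replicate block, an offset on A content (lowess span 0.2), summed near-identical genes and leaving each library out. Libraries of one group differed by more than counting noise (chi-square per gene 38.1 in shCtrl and 27.9 in shFOXK2). Separate preparations of the same cells could differ in this way too, so this does not show that the duplicates are independent. Each library was counted as a sample because the paper gives n = 2 here and defines n as biological replicates.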

Additional observations from a re-analysis of the deposited data

How the results depend on the processing

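Without one library in turn, the log2 fold change of HSP90AA1 ran from 4.27 to 4.47, its difference from HSP90AB1 from 3.69 to 3.93, the calls among chaperone and HSF1 pathway genes from 33 to 46 (42 with all libraries), all calls from 6771 to 7775 (7940) and the median of the 10 genes from 0.38 to 1.14, the last without shFOXK2 replicate 2. Without shFOXK2 replicate 1, and then without shFOXK2 replicate 2, HSPA1A was at -0.80 and 1.18, HSPA1B at -0.47 and 1.10, HSPA8 at -0.77 and 0.28 and DNAJB1 at -0.89 and 0.044, so that each changed sign with the shFOXK2 library left in, whose spread is then taken from the controls. With the offset on A content HSP90AA1 was at 3.35, HSPD1 at 0.65, HSPE1 at 0.72 and DNAJB1 at 0.025. The median change per gene with this offset was 0.26, and relative to it DNAJB1 was at -0.23, the sign of the main fit. HSP90AB1, not called in the main fit, was called higher with library size alone, with the edgeR exact test and with the offset on A content. It was not called with DESeq2 (size factors or Wald test), the other filters or the replicate block. Without a filter the median of all genes shifted by -0.10. The replicate numbers did not pair the samples (correlation of same-numbered deviations -0.09, from 2 pairs), and with the replicate block 7270 genes and 36 of the pathway genes were called, FKBP8, CLPB and DYNC1H1 no longer among the calls, and HSP90AA1 was at 4.40. Summing HSP90AA1 with its pseudogenes left 4.40. HSPA6, CRYAB, HSF5 and the other listed genes that were not tested (104 of 113 were) did not pass the filter on low counts. Pseudogenes held few reads. With 2 libraries a group the spread of each gene leans on that of all genes.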
